A study of Mus musculus with 60 samples.

Results

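The genes described here are 10 transcriptional targets of the tumour suppressor p53 that act in cell cycle arrest and stress signalling: Cdkn1a, Mdm2, Ccng1, Gdf15, Phlda3, Sesn2, Btg2, Plk2, Zmat3 and Trp53inp1. They were chosen by symbol, through the RefSeq accession of each array probe. They were 10 of 20018 genes with a symbol on the array and held 12 of its 55681 probes, with 2 probes each for Cdkn1a and Trp53inp1. In cells with damaged DNA, p53 is stabilised and binds response elements near such genes, whose products halt the cell cycle, dampen growth signalling or feed back on p53. Polycyclic aromatic hydrocarbons can be oxidised by cytochrome P450 enzymes to products that bind DNA, so that these genes are commonly read as a sign of a damage response in exposed tissue.

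RNA was from lung, liver and forestomach of 20 male mice of the Muta Mouse strain, about 10 weeks old, which carries a lacZ transgene used in mutation tests. The mice were gavaged each day for 28 days with olive oil alone (D0) or with benzo(ghi)perylene (BghiP), a polycyclic aromatic hydrocarbon, in olive oil at 6.25 (D1), 12.5 (D2) or 25 mg/kg-bw/day (D3). Each dose had 5 mice, numbered 1 to 5 for D0, 6 to 10 for D1, 11 to 15 for D2 and 16 to 20 for D3, and every mouse gave all 3 tissues, collected 72 h after the final dose. Each of the 60 samples was hybridized in Cy5 on its own 2-colour array against a Cy3-labelled pool of RNA from mouse cell lines, the universal reference. A level is the log2 ratio of tissue to reference signal, and a change is a difference of such levels.

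Lung and forestomach arrays shared 5 slides, each with 1 array of every dose and tissue, and liver arrays were on 3 slides of their own. On every slide a dose kept its own column of arrays, so dose and column cannot be told apart. The share of probes well above background in Cy5 was 35.0% to 58.7% in lung, 36.3% to 48.4% in liver and 21.4% to 53.4% in forestomach. Lung identity markers were well above background in all lung arrays, 6 of 6, and liver markers in all liver arrays, 7 of 7. Forestomach arrays had 6 or 7 of 7 squamous epithelium markers, and also glandular stomach markers, whose mean level ran from 0.27 to 7.79 between mice. Over the 20 lung arrays, means of fat cell markers ran from 0.49 to 5.13 and of heart muscle markers from 0.43 to 4.31. The lung of D0 mouse 1 stood apart with all 8 skeletal muscle markers at a mean of 4.67 and with a squamous marker mean of 3.78. Relative to the D0 mean its skeletal muscle markers were at 4.18, against at most -0.10 in the D1, D2 and D3 lungs. The lung of D3 mouse 20 stood apart with 6 of 7 liver markers well above background at a mean of 3.50, against at most 0.34 in the other 19 lungs, and with a glandular stomach marker mean of 1.44, against at most 0.19. In forestomach, D0 mouse 2 had all 6 lung markers well above background at a mean of 5.10, D0 mouse 5 had a fat cell marker mean of 6.28, the highest of that tissue, and liver markers ran from 0.03 to 3.96. In whole tissue, fewer cells of a type and less RNA per cell cannot be told apart.

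The promoters are shown for what can be read from their letters, since p53 binds a pair of half-sites 0 to 13 bases apart. RefSeq windows of assembly GRCm38.p6, from 250 bases before to 50 bases after an annotated start, matched 8 of the 10 genes (all but Zmat3 and Trp53inp1). The p53 half-site consensus, searched on both strands, was found without a mismatch in windows of Cdkn1a, Mdm2 and Ccng1. These were 3 of 8 genes, beside 2582 of all 27025 genes with a window (9.55%) and 10 of 19 other p53 targets (52.6%). A pair of half-sites without a mismatch was found in 1 of the 8 genes, Cdkn1a, in 20 of the 27025 (0.074%) and in 0 of the 19 other p53 targets. With 1 mismatch allowed in each half-site, the pair was again found in Cdkn1a alone of the 8 genes, in 434 of the 27025 (1.61%) and in 1 of the 19 other p53 targets (5.26%). No binding was measured, and the windows without a match say nothing about elements elsewhere in those genes. In the 3 stretches printed 5′ to 3′ on the strand of the gene, capitals mark the half-sites. The stretches were chr17:29090881-29090972 on the plus strand for the upstream of the 2 starts of Cdkn1a, chr10:117710910-117710969 on the minus strand for Mdm2 and chr11:40755437-40755496 on the minus strand for Ccng1.
Cdkn1a: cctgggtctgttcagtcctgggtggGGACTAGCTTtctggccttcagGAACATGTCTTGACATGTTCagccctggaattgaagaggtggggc
Mdm2: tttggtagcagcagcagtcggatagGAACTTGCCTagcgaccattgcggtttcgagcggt
Ccng1: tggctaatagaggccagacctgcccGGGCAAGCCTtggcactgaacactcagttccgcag
The longest run of capitals, in Cdkn1a, holds 2 adjoining half-sites from 51 to 32 bases before the start, of which the first is without a mismatch and the second has 1.

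In lung at the highest dose, the mean of each of the 10 genes, read by its brightest probe, was above its vehicle mean, by 0.06 (Mdm2) to 0.97 (Gdf15) on the log2 scale. The largest differences were those of Gdf15, Cdkn1a and Phlda3. A gene was called where limma gave it an adjusted p up to 0.05 together with a fold of 1.5 or more. By this rule 0 of the 10 were called, beside 0% of the 31041 probes tested in lung. By unadjusted p of 0.05 or less in limma, 6 of the 10 genes were higher and 0 lower, beside 2.91% of all probes higher and 1.89% lower. The count was 5 with the Cy5 signal alone (beside 3.55% of probes) and 4 with all 60 arrays in one fit (beside 1.86%). The median change over the 10 genes was 0.28, beside 0.0093 over all probes.

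**Figure D1:**
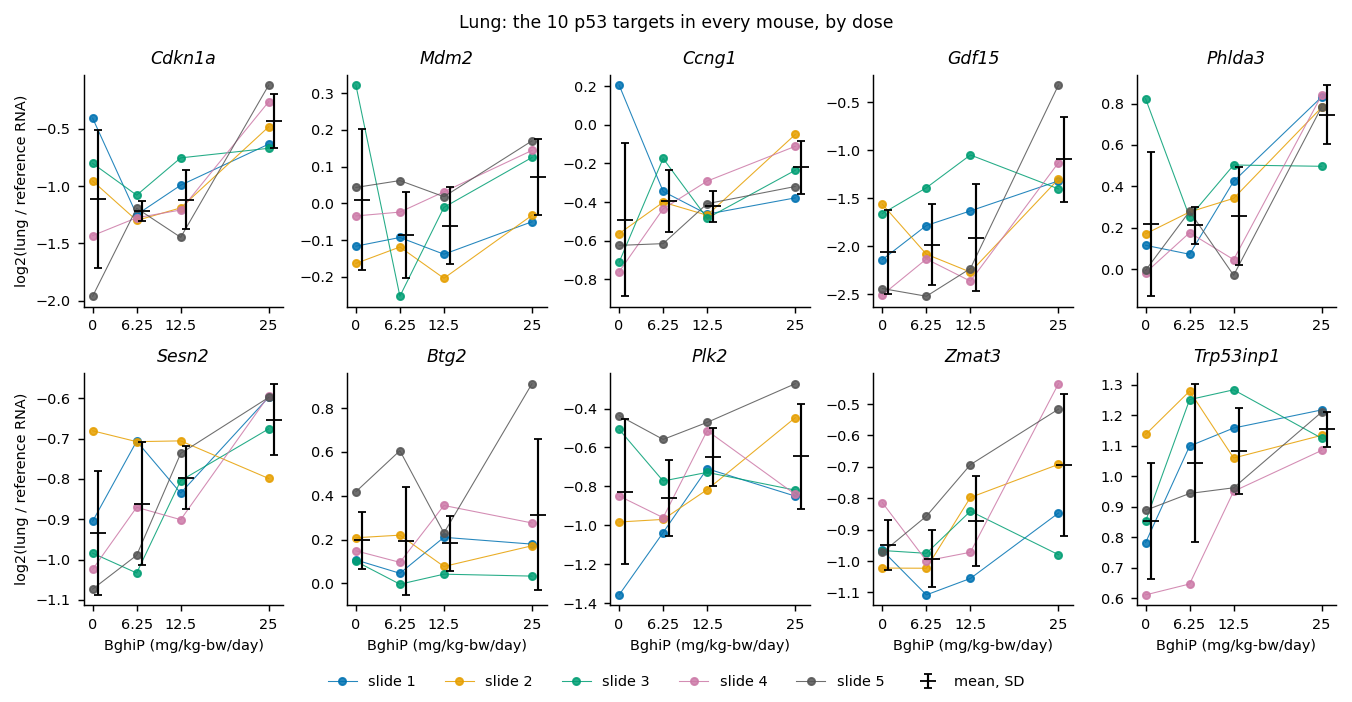
Level of each gene in every lung array, as log2 ratio to reference RNA (vertical axis), against BghiP dose in mg/kg-bw/day (horizontal axis). Points of one colour are arrays of different mice on 1 slide, joined to show the slide, and black bars give the mean and SD of 5 mice. Means of Cdkn1a, Gdf15 and Phlda3 were highest at 25 mg/kg-bw/day. The highest D2 lung, at -1.05 for Gdf15 and 0.50 for Phlda3, lay within the D3 range of each gene. The vehicle array of slide 1 (Ccng1) and of slide 3 (Phlda3, Mdm2) stood above the other vehicle arrays.

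Cdkn1a encodes p21, the inhibitor of cyclin-dependent kinases through which p53 blocks entry into S phase. By its brighter probe (NM_007669) its levels in the 5 D0 lungs, in the order of mice 1 to 5, were -0.41, -0.96, -0.80, -1.43 and -1.96, and in the 5 D3 lungs, mice 16 to 20, -0.63, -0.48, -0.67, -0.27 and -0.12. The D3 mice lay closer together than the D0 mice, and only D0 mouse 1, the lung with muscle markers, overlapped them. The change was 0.68 ± 0.21 (SE, n = 5 and 5), a fold of 1.60, with an unadjusted p of 0.00407 and an adjusted p of 0.826 in limma. Leaving out each D0 or D3 mouse in turn gave changes from 0.46 (without D0 mouse 5) to 0.85 (without D0 mouse 1), and the change was 0.60 without D3 mouse 20, the lung with liver markers.

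The other Cdkn1a probe carries the accession of the second RefSeq transcript, NM_001111099. Its levels were -0.96, -0.67, -0.28, -0.85 and -1.57 in the D0 lungs and -0.02, -0.18, -0.41, 0.13 and -0.04 in the D3 lungs. D3 mouse 18 lay below D0 mouse 3, both on slide 3, and the other 4 D3 mice were above all D0 mice. This probe was well above background in 1 of 5 D0, 2 of 5 D1, 4 of 5 D2 and 5 of 5 D3 lungs, so its vehicle level rests on dim spots. Its change was 0.76 ± 0.20, with an adjusted p of 0.757 in limma. In the liver and forestomach it was well above background on 0 arrays of every dose and was not tested there.

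Among the other arrest genes, Btg2 (an antiproliferative protein), Ccng1 (cyclin G1) and Plk2 (a polo-like kinase) had changes in lung of 0.12 ± 0.14, 0.27 ± 0.14 and 0.18 ± 0.16. Mdm2, the ubiquitin ligase that marks p53 for degradation, had the smallest change, 0.06 ± 0.09. Unadjusted p-values in limma ran from 0.0672 (Ccng1) to 0.512 (Mdm2). Ccng1 levels were 0.21, -0.56, -0.71, -0.76 and -0.62 in the D0 lungs and -0.38, -0.05, -0.24, -0.11 and -0.32 in the D3 lungs. All D3 mice were above D0 mice 2 to 5 and below D0 mouse 1, and leaving out each mouse in turn gave changes from 0.20 to 0.45, the highest without D0 mouse 1 (limma, adjusted p 0.432). The same fits gave 0.05 (without D0 mouse 1) to 0.28 (without D0 mouse 5) for Plk2 and 0.02 (without D0 mouse 2) to 0.14 (without D0 mouse 3) for Mdm2. Btg2 was highest in D3 mouse 20, at 0.91, and its change was -0.03 without that mouse.

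Gdf15 encodes a secreted cytokine of the stress response. Its levels were -2.14, -1.56, -1.66, -2.51 and -2.44 in the D0 lungs and -1.32, -1.30, -1.40, -1.13 and -0.32 in the D3 lungs. The groups did not overlap, with the lowest D3 mouse at -1.40 and the highest D0 mouse at -1.56. Gdf15 was the only member (1 of 10) of which this held, beside 0.435% of all lung probes without overlap in this direction. The change was 0.97 ± 0.27, a fold of 1.95, with an adjusted p of 0.794 in limma. With background-subtracted processed signals in place of median signals it was 1.53, and without D3 mouse 20 it was 0.77, the lowest when each mouse was left out in turn.

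Phlda3 encodes a pleckstrin homology domain protein that restrains Akt signalling. Its levels were 0.12, 0.17, 0.82, -0.02 and -0.01 in the D0 lungs and 0.83, 0.78, 0.50, 0.84 and 0.78 in the D3 lungs. D0 mouse 3 and D3 mouse 18, the pair of slide 3, each stood apart from their groups and in opposite directions. The change was 0.53 ± 0.14, a fold of 1.44, with an unadjusted p of 0.00118 and an adjusted p of 0.739 in limma.

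Sesn2, which restrains mTORC1 under stress, Zmat3, an RNA-binding zinc finger protein, and Trp53inp1, a p53-interacting stress protein, differed less but with small spread. Sesn2 levels were -0.90, -0.68, -0.98, -1.02 and -1.07 in D0 and -0.60, -0.80, -0.68, -0.59 and -0.60 in D3, a change of 0.28 ± 0.09. Zmat3 levels were -0.97, -1.02, -0.97, -0.81 and -0.97 in D0 and -0.85, -0.69, -0.98, -0.44 and -0.52 in D3, a change of 0.25 ± 0.10. For Sesn2 D3 mouse 17 and for Zmat3 D3 mice 16 and 18 lay inside the D0 range, and the rest lay at or above its upper end. Trp53inp1 by its brighter probe was 0.78, 1.14, 0.85, 0.61 and 0.89 in D0 and 1.22, 1.13, 1.13, 1.09 and 1.21 in D3, a change of 0.30 ± 0.11. Its second probe, to the same accession, gave 0.26 ± 0.13. Adjusted p-values in limma were 0.828 for Sesn2 and 0.92 for Zmat3 and for the brighter Trp53inp1 probe.

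Set within the slide that D0 and D3 arrays shared, the D3 array was higher on all 5 slides for Gdf15 alone of the 10 genes, beside 7.47% of lung probes. This count for Gdf15 follows from its groups not overlapping and adds no separate evidence. For Gdf15 the differences on slides 1 to 5 were 0.82, 0.26, 0.26, 1.38 and 2.12. For Cdkn1a (NM_007669) they were -0.23, 0.47, 0.13, 1.17 and 1.84, and for its second probe 0.94, 0.49, -0.13, 0.98 and 1.53. The gaps were widest on slides 4 and 5 for these genes. For Phlda3 they were 0.72, 0.61, -0.33, 0.86 and 0.79. Of the other 7 genes, 6 were higher on 4 of 5 slides and Btg2 on 3 of 5.

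**Figure D2:**
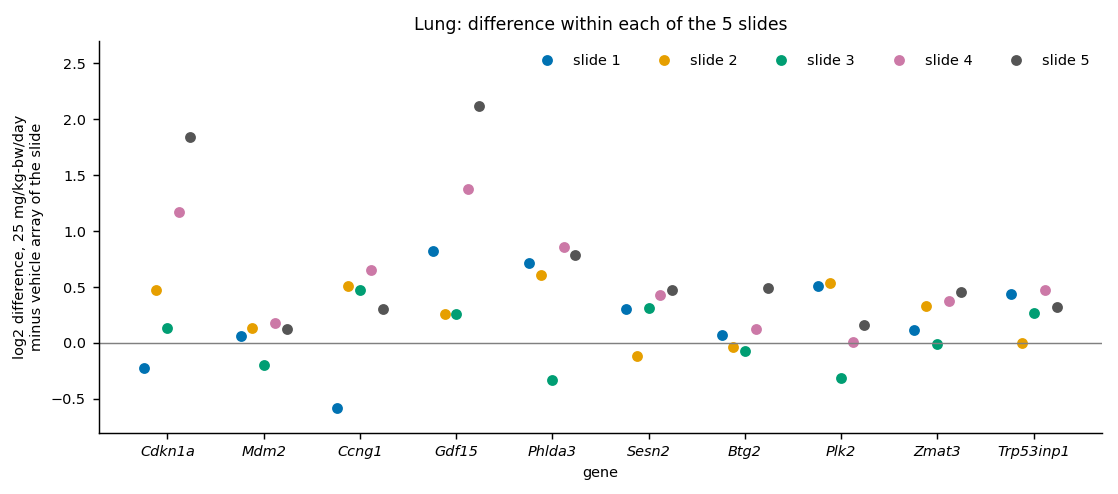
Difference between the D3 and the D0 lung array of each of the 5 slides (vertical axis, log2) for each gene (horizontal axis), with a colour for each slide. Most points lie above 0, and the points below 0 are spread over slides 1, 2 and 3.

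With slide as a block in limma, 1 of the 12 member probes was called in lung at D3, the second Cdkn1a probe, at an adjusted p of 0.0422, beside 0.0709% of all probes (22 of 31041). The brighter Cdkn1a probe had an adjusted p of 0.118 in that fit, Phlda3 0.0719, Gdf15 0.0854, Sesn2 0.105, Trp53inp1 0.111 and Zmat3 0.142. By gene (brightest probe), 6 of 10 were higher at an unadjusted p of 0.05 or less, beside 9.48% of probes. When each D0 and D3 mouse was left out of this fit in turn, the adjusted p of the second Cdkn1a probe ran from 0.00774 (without D3 mouse 18) to 0.116 (without D0 mouse 2). In limma it stayed at 0.05 or less only without D0 mouse 3 (0.0459) or D3 mouse 18, and leaving out D0 mouse 1, 2, 4 or 5 or D3 mouse 16, 17, 19 or 20 ended the call. Phlda3 was called without D0 mouse 3 (adjusted p 0.0373 in limma, beside 0.0419% of probes called) or without D3 mouse 18 (0.0488, beside 0.0322%).

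At the lower doses the lung means of the 10 genes lay near those of the vehicle mice. At D1, 4 genes were higher and 6 lower with a median change of -0.0049, and at D2, 7 were higher and 3 lower with a median of 0.07. Neither dose had a member called in limma (0 of 10, beside 0% of probes) or one with an unadjusted p of 0.05 or less (beside 1.34% of probes higher and 0.896% lower at D1, and 1.91% higher and 1.51% lower at D2). With the slide block 1 of 10 was higher at such a p in limma at each dose, Trp53inp1, with an unadjusted p of 0.044 at D1 (adjusted 0.526, beside 5.43% of probes) and 0.018 at D2 (adjusted 0.307, beside 7.29%). Trp53inp1 had the largest change at both doses among the 10 genes, 0.19 ± 0.11 at D1 and 0.23 ± 0.11 at D2. The slope on dose was above 0 for all 10 genes and had an unadjusted p of 0.05 or less in limma for 6, beside 2.89% of probes with such a slope above 0 and 1.9% below. None was past an adjusted p of 0.05, beside 0% of probes. For Cdkn1a it was 0.029 ± 0.0084 per mg/kg-bw/day (adjusted p 0.746 in limma), for Gdf15 0.039 ± 0.010 and for Phlda3 0.022 ± 0.0055. With the slide block the slope of the second Cdkn1a probe had an adjusted p of 0.0471 in limma, beside 0.309% of probes called. Since the D3 values enter both fits, the slopes add no separate evidence.

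Averaged over the 10 genes, the D3 lungs were 0.26, 0.34, 0.21, 0.41 and 0.60 above the vehicle mean and the D0 lungs ran from -0.16 to 0.16. All D3 mice were above all D0 mice in this mean, which is a description with no test. Group means were 0.01 ± 0.06 (SD, n = 5) at D1, 0.08 ± 0.09 at D2 and 0.36 ± 0.15 at D3. In D3 mouse 20 all 10 genes were above their vehicle mean, and in D3 mouse 16, the lowest count, 7 were. In the liver the D3 mean was -0.03 ± 0.08 and in the forestomach -0.14 ± 0.13.

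**Figure D3:**
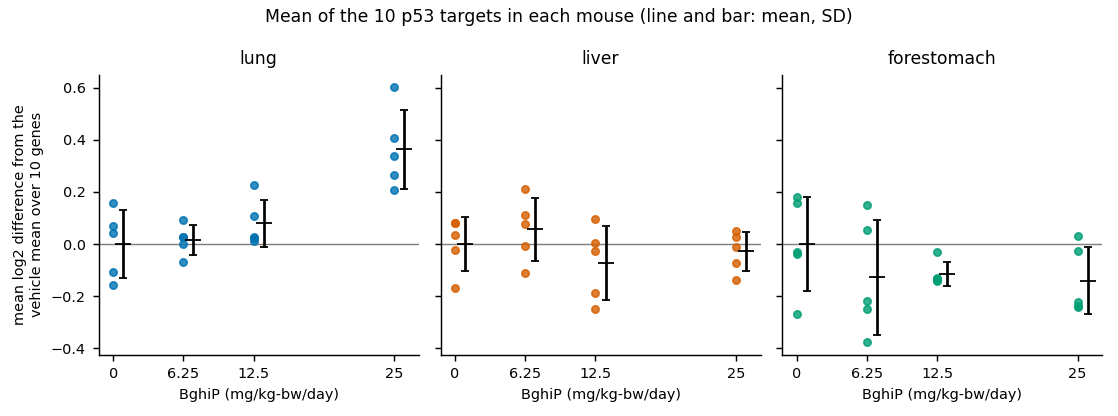
Mean over the 10 genes of the log2 difference from the vehicle mean (vertical axis) in each mouse, against dose in mg/kg-bw/day (horizontal axis), for each tissue. Points are mice and black bars the mean and SD of 5. The D3 lungs lie between 0.21 and 0.60, above the D0 lungs, while liver and forestomach values at D3 lie within the D0 range.

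Over the 20 lung arrays the 3 genes with the largest changes varied together, with r of 0.78 between Cdkn1a and Gdf15, 0.77 between Cdkn1a and Phlda3 and 0.75 between Gdf15 and Phlda3. After dose and slide effects were taken out, these were 0.57, 0.46 and 0.37. Over all 45 pairs of genes the median r in lung was 0.32, against 0.06 for liver and 0.02 for forestomach. With dose and slide effects taken out these medians were 0.18, 0.06 and 0.04. The arrays share slides, and r is given as a description. Of 14485 genes compared, those most like the mean of the 10 over the 20 lung arrays included Ncaph (r = 0.88), a condensin subunit, Mtbp (0.75), Cd34 (0.72) and Prmt6 (0.71). Their changes in lung at D3 lay between 0.26 (Mtbp) and 0.41 (Cd34).

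Other genes of the pathway were divided in direction. Of 24 other p53 targets, 21 were tested in lung at D3, of which 11 were higher and 10 lower, with a median change of 0.01. At an unadjusted p of 0.05 or less in limma, 4 of the 21 were higher and 0 lower, beside 2.91% of probes higher, and with the slide block 5 were higher and 1 lower, beside 9.48% higher. The lowest unadjusted p-values in limma were those of Bax, an effector of apoptosis, with a change of 0.54 ± 0.12 (adjusted p 0.504, 0.016 with the slide block), Ephx1, an epoxide hydrolase, with 0.48 ± 0.11 (adjusted p 0.504, 0.0243 with the block) and Aen, an exonuclease, with 0.46 ± 0.15 (adjusted p 0.897, 0.053 with the block). Both Bax and Ephx1 fell short of the 1.5-fold minimum. Of 15 tested genes of p53 and its regulators 8 were higher and 7 lower, and Trp53 itself had a change of 0.06 ± 0.15. In that list the lowest p-values were those of Sirt1 (-0.25), Hipk2 (0.20) and Rchy1 (0.19), with adjusted p-values of 0.998 in limma.

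Of 17 cell cycle genes downstream of p21, 10 were higher and 7 lower in D3 lungs, with a median of 0.06. Ccnd1, cyclin D1, had a change of 0.48 ± 0.12 (adjusted p 0.672 in limma, 0.0409 with the slide block), Mcm5 0.28 and Cdk6 0.22. Gdf15 and Sesn2 are also induced by the transcription factor ATF4. Of 16 tested genes of the ATF4 stress response 5 were higher and 11 lower, with a median of -0.03, and the lowest p-values were those of Trib3 (0.19), Cebpb (-0.29) and Phgdh (-0.36). Immediate early genes, which respond within minutes to many stimuli, were higher in 8 and lower in 4 of 12. Without the slide block none had an unadjusted p of 0.05 or less in limma, beside 2.91% of probes higher and 1.89% lower. The lowest p-values were those of Klf4 (-0.27), Fos (0.56) and Egr1 (0.50).

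The means of other groups of genes also lay apart in the same D3 lungs, mostly without passing a test, and their part in the values of the p53 targets was not tested. Of 5 mesothelial markers all had a higher mean in D3, and 2 were called with the slide block in limma, Upk3b (1.01, adjusted p 0.03) and Lrrn4 (1.24, adjusted p 0.038), beside 0.0709% of probes called. Without the block neither was called (adjusted p 0.598 and 0.780 in limma). The mean of the 5 markers ran from -0.91 to 0.84 in D0 and from 0.46 to 1.07 in D3, relative to the D0 mean. It averaged 0.56 at D1 and 0.61 at D2. All 6 lung identity markers had a higher mean in D3, with a median change of 0.23, and 5 of the 6 had an unadjusted p of 0.05 or less with the slide block in limma, beside 9.48% of probes higher, whereas 0 did without it, beside 2.91%. All 6 B cell markers, all 6 fat cell markers and all 5 macrophage markers tested also had a higher mean, with median changes of 0.25, 0.25 and 0.18. None of these had an unadjusted p of 0.05 or less in limma with or without the block (0 of 6, 0 of 6 and 0 of 5). The fat cell marker mean was 0.45 in the median D0 mouse but -0.19 in the median D3 mouse, relative to the D0 mean. The highest D3 mouse was at 2.43. Of 11 circadian clock genes 8 were higher, with Nr1d1 at 1.16 ± 0.30 (adjusted p 0.739, 0.0479 with the slide block), Dbp at 1.39 ± 0.49 and Tef at 0.39 ± 0.16. Skeletal muscle markers were 4.18 above the D0 mean in D0 mouse 1 and below it in the other 4 D0 mice and all D3 mice, and 0 of 6 had an unadjusted p of 0.05 or less in limma in either fit. When each D0 and D3 mouse was left out in turn, 5 to 7 of the 10 p53 targets were higher at an unadjusted p of 0.05 or less in limma, with 7 without D0 mouse 1 and 5 without D0 mouse 4, D3 mouse 19 or D3 mouse 20. In these 10 fits 2.21% to 5.76% of all probes were higher at that p, with 5.76% without D0 mouse 5. The median change of the 10 genes ran from 0.25 to 0.30 in these fits.

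In liver at D3, 4 of the 10 genes were higher and 6 lower than in vehicle mice, with a median change of -0.02, and 0 of 10 were called in limma (beside 0% of 25907 probes). Cdkn1a was the 1 gene with an unadjusted p of 0.05 or less (beside 5.46% of probes higher and 6.74% lower), and its mean was lower. Its levels were -3.84, -3.30, -3.68, -3.23 and -3.68 in the D0 livers and -3.77, -3.82, -4.25, -3.71 and -3.54 in the D3 livers. The groups overlapped, and the change was -0.27 ± 0.13, with an adjusted p of 0.403 in limma. Gdf15 spread widely in liver, from -1.70 to -0.02 in D0 and from -1.51 to -0.05 in D3, so its change of -0.04 had a 95% interval from -0.88 to 0.80. For the other 8 genes no interval reached past -0.38 or 0.38. Ccng1 had a change of 0.17 ± 0.10, with all 5 D3 mice above the vehicle mean. At D1 5 genes were higher and 5 lower and at D2 3 were higher and 7 lower, and at neither dose was a member called (beside 0% of probes) or at an unadjusted p of 0.05 or less in limma. Beside these, 1.63% of probes were higher and 1.41% lower at D1, and 1.74% higher and 2.4% lower at D2.

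In forestomach at D3, 3 of the 10 genes were higher (Ccng1, Trp53inp1 and, by less than 0.01, Zmat3) and 7 lower, with a median change of -0.21, and 0 of 10 were called in limma (beside 0% of 25107 probes). No gene had an unadjusted p of 0.05 or less in limma, beside 0.741% of probes higher and 0.761% lower. Phlda3 levels were 1.10, 1.15, 1.17, 1.03 and 1.05 in the D0 forestomachs and 0.68, 0.99, 0.82, 0.68 and 0.95 in the D3 forestomachs. These groups did not overlap, which held for 1 of the 10 genes beside 0.139% of probes. The D3 array was therefore lower on all 5 slides, which adds no separate evidence. The change was -0.27 ± 0.29, with an SE that pools the spread of all 4 doses, of which D1 and D2 spread far more. At D2 Phlda3 was again below all D0 mice, by a mean of 0.49, beside 0.243% of probes. Mdm2 levels were -0.92, -0.68, -0.30, -1.15 and -0.99 in D0 and -1.09, -1.02, -1.12, -1.02 and -1.06 in D3, with a change of -0.26 ± 0.14. The D3 values of Mdm2 lay within a narrow band inside the D0 range, below its mean. Cdkn1a levels were 0.77, 0.45, 0.93, 0.62 and 0.96 in D0 and 0.76, 0.63, 0.43, 0.35 and 0.28 in D3, with a change of -0.26 ± 0.13. The D3 values of Cdkn1a overlapped those of D0 in 2 mice and lay below them in 3. Gdf15 was well above background in 2 of 5 D0 and 1 of 5 D3 forestomachs, and its change was -0.47 ± 0.48. Leaving out 1 mouse moved it from -0.80 (without D0 mouse 5, high in fat cell markers) to -0.17 (without D0 mouse 2, high in lung markers), and the part of those markers was not tested.

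**Figure D4:**
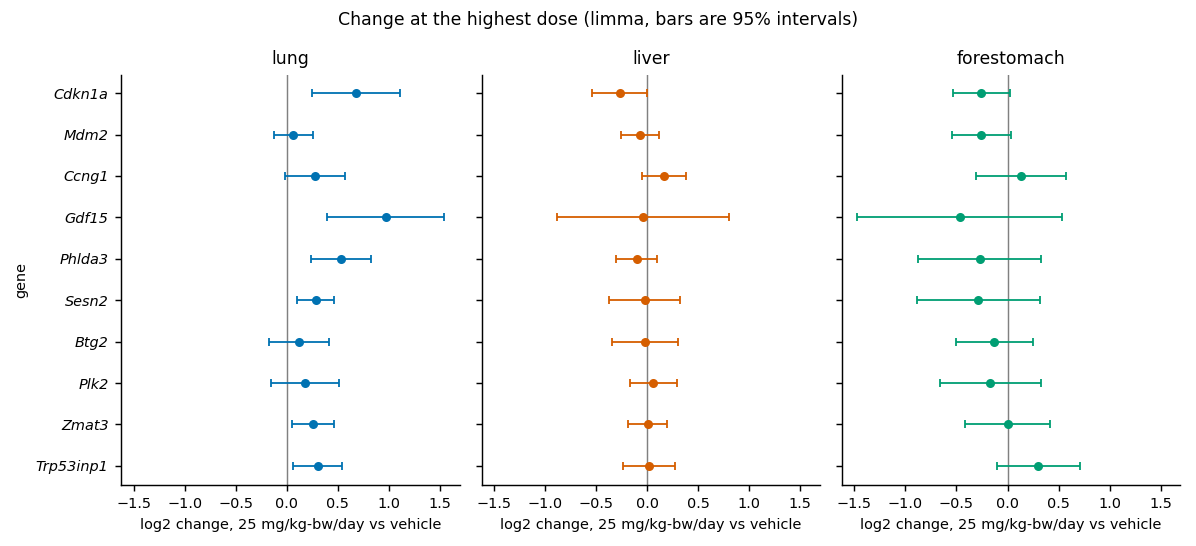
Change from vehicle to 25 mg/kg-bw/day (horizontal axis, log2) of each gene (vertical axis) in lung, liver and forestomach. Points are limma estimates from 5 mice a group and bars their 95% intervals. In lung the 10 points lie above 0, and the intervals of Mdm2, Ccng1, Btg2 and Plk2 span 0. In liver and forestomach most intervals span 0.

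At D1 the forestomach held the largest differences of that tissue. Phlda3 was 1.14, -0.39, 1.08, -0.78 and 0.45 in mice 6 to 10, a change of -0.80 ± 0.29, and Ccng1 was -0.86, -0.19, -0.53, -0.28 and -0.67, a change of 0.63 ± 0.21. Their adjusted p was 0.506 in limma for both, with 1 gene higher and 1 lower at an unadjusted p of 0.05 or less, beside 6.35% and 3.01% of probes. Sesn2 followed Phlda3, at 0.21, -1.17, -0.37, -1.45 and -0.83, with r of 0.77 between these genes over the 20 forestomachs. Glandular stomach markers in mice 6 to 10 had mean levels of 1.75, 7.28, 6.08, 7.79 and 7.27, so that mice 7 and 9, low in Phlda3 and Sesn2, were among those high in these markers, although mouse 8 was high in them without a low Phlda3. Their part in the values was not tested. At D2 Ccng1 was higher by 0.53 ± 0.21 (limma, unadjusted p 0.0205, adjusted p 0.997), the 1 gene of 10 at an unadjusted p of 0.05 or less, beside 1.87% of probes higher and 1.76% lower. No member was called at D1 or D2, beside 0% of probes.

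The D3 changes of the tissues were set against each other in 1 limma model of all 12 groups. Of the 10 genes 0 were called for any pair of tissues, as were 0% of 33273 probes. The change of Cdkn1a was larger in lung than in liver by 0.95 ± 0.23 and than in forestomach by 0.93 ± 0.23, with unadjusted p-values of 0.00016 and 0.000197 and adjusted p-values of 0.926 and 1. For Phlda3 the differences were 0.63 ± 0.28 and 0.80 ± 0.28, and for Gdf15 1.01 ± 0.59 and 1.44 ± 0.59, with adjusted p-values of 1 in limma. By unadjusted p of 0.05 or less, 2 of 10 genes had a larger change in lung than in liver (beside 1.68% of probes) and 4 of 10 a larger one in lung than in forestomach (beside 1.10%). With mouse as a replicate block, since the 3 tissues came from the same animals, 0 of 10 genes were called in each of these comparisons, beside 0% of probes.

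Apart from dose, the vehicle levels of these genes differed widely between tissues. Between lung and liver 8 of the 10 genes passed the call rule in limma (beside 44.3% of probes), between lung and forestomach 6 (beside 33.2%) and between liver and forestomach 9 (beside 39.2%). With mouse as a replicate block the counts were again 8, 6 and 9, beside 44.6%, 33.6% and 39.5% of probes. Liver arrays were on slides of their own, so slide and tissue cannot be told apart in comparisons with liver, and lower levels in whole liver cannot be assigned to a cell type.

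By its brighter probe Cdkn1a had the widest range over the tissues, with D0 levels of 0.75 ± 0.21 (SD, n = 5) in forestomach, -1.11 ± 0.60 in lung and -3.55 ± 0.27 in liver. Each tissue was apart from the next, by 1.86 between forestomach and lung and by 2.44 between lung and liver, with adjusted p-values of 5.79e-14 and 5.77e-19 in limma. From forestomach to liver this was a fold of 19.6. The second Cdkn1a probe, well above background in 1 of 5 D0 lungs and in 0 of 5 D0 livers and forestomachs, differed by 0.28 between lung and liver and by -0.18 between lung and forestomach, with neither called (adjusted p 0.281 and 0.539 in limma). Phlda3 kept the same order, at 1.10 ± 0.06, 0.22 ± 0.35 and -2.67 ± 0.09, with a fold of 13.6 from forestomach to liver. Sesn2 and Zmat3 were also highest in forestomach and lowest in liver, although the gap of forestomach to lung for Sesn2, 0.58, and that of lung to liver for Zmat3, 0.56, fell short of 1.5-fold. The Sesn2 gap was called without D0 lung mouse 1 or 2 or D0 forestomach mouse 3 or 4 (sizes of 0.59 to 0.71), and the Zmat3 gap without D0 liver mouse 2 or 3 (0.61 and 0.59).

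Mdm2 had its highest level in lung, at 0.01 ± 0.19, above forestomach by 0.82, while forestomach and liver, at -0.81 ± 0.33 and -1.05 ± 0.16, differed by less than 1.5-fold. Ccng1 was ordered lung, forestomach, liver, at -0.49 ± 0.40, -1.13 ± 0.37 and -2.06 ± 0.16, with each step called. The step between lung and forestomach, a difference of 0.64, fell under the 1.5-fold minimum without D0 lung mouse 1 (0.47), D0 forestomach mouse 1 (0.54) or D0 forestomach mouse 4 (0.55). Btg2 and Plk2 did not differ between lung and forestomach beyond their spread (differences of 0.29 and 0.05, with adjusted p-values of 0.127 and 0.832 in limma) and were lower in liver by 2.00 and 0.88 than in lung.

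By the brighter probe of each gene, Gdf15 alone of the 10 was highest in liver, at -0.70 ± 0.67, above lung by 1.36 (adjusted p 0.00404 in limma) and above forestomach by 1.22 (adjusted p 0.0109). Without D0 forestomach mouse 5 the latter difference was 0.89 and was not called (adjusted p 0.0694 in limma). Its lung and forestomach levels, -2.06 ± 0.44 and -1.92 ± 1.00, did not differ beyond their spread. Trp53inp1 was read differently by its probes. By the brighter probe lung, at 0.85 ± 0.19, was above liver, at 0.32 ± 0.20, and by the other liver, at 0.43 ± 0.40, was above lung, at -0.10 ± 0.14. The difference was 0.53 in both cases, in opposite directions and short of 1.5-fold, although the brighter probe passed it without D0 lung mouse 4 (0.59) or D0 liver mouse 3 (0.60). Forestomach had the lowest mean by both. By the second probe, which was well above background in 2 of 5 D0 forestomachs, forestomach was below lung by 0.24, within the spread (adjusted p 0.159 in limma).

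**Figure D5:**
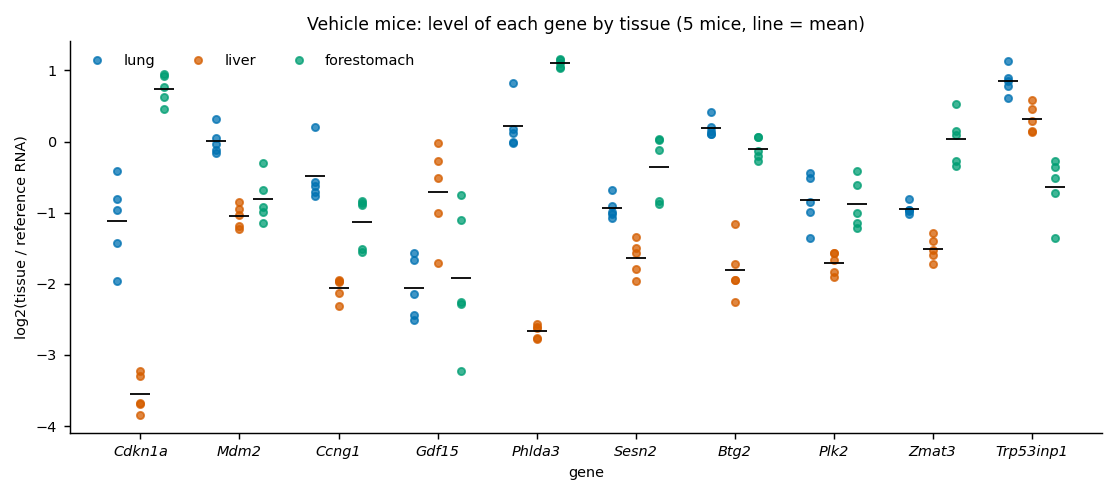
Level of each gene in vehicle mice (vertical axis, log2 ratio to reference RNA) by gene (horizontal axis) and tissue (colour). Points are the 5 mice and black lines their mean, and levels of different genes are not comparable. Liver lies lowest for Cdkn1a, Phlda3, Ccng1 and Btg2 and highest for Gdf15.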

How the data were processed

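Per the file headers, the authors scanned each array, and Feature Extraction 10.7.3.1 wrote red and green intensities for 62976 spots. The authors also deposited normalized log2 ratios, which correlated with those used here at r of 0.991 or more. Here median intensities were normalized by loess within each array, without the 3671 control spots and without outlier-flagged values (0.460%), spots of a probe were averaged, and 26413 of 55681 probes got a symbol by RefSeq accession (GRCm38.p6 table; header build mm9). Probes well above background on at least 5 of the 20 arrays of a tissue were fitted per tissue in limma 3.58.1 (R 4.3.3), with Benjamini-Hochberg adjustment over all of them. Scripts were tested on simulated data. Python 3.11.15 searched promoters.

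A gene was read by its brightest probe. All 10 members were named, with genes of the other lists that were called or had the 3 lowest p-values in lung at D3, and the 5 genes most like the member mean, of which 1 is not reported here. Members and lists were chosen with earlier results of these data known. Same-numbered samples of different tissues came from the same mouse, which is the replicate block. P-values measure the spread between mice, and the number of arrays limits precision. Alternatives changed background correction, normalization, the probe filter, the probes of a gene, the slide block and each mouse. Leaving out each D0 and D3 mouse under the slide block was chosen after seeing the data. Each array's RNA was from 1 mouse, in random tissue sections per the methods.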

Additional observations from a re-analysis of the deposited data

Results flagged for a closer look

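In 10 of the 144 groups of 5 mice searched over the 12 probes, 1 mouse stood far from the other 4, where chance gives about 1 in 20 groups, or 7.2. In lung these were Ccng1 in D0 mouse 1 (0.21), Phlda3 in D0 mouse 3 (0.82) and in D3 mouse 18 (0.50), Zmat3 in D0 mouse 4 (-0.81), and Gdf15 (-0.32) and Btg2 (0.91) in D3 mouse 20. In liver they were Mdm2 in D2 mouse 11 (-0.99) and Trp53inp1 in D1 by its 2 probes, at 0.14 in mouse 7 and 0.18 in mouse 9. In forestomach it was the second Cdkn1a probe in D2 mouse 15 (-1.54), which was well above background on no forestomach array. All values are log2 ratios to reference RNA.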

How the results depend on the processing

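In lung the change of each of the 10 genes at D3 kept its direction in 120 of 120 alternatives and in 99 of 100 fits that left out 1 mouse. In liver these were 114 of 119 and 79 of 100, and in forestomach 115 of 117 and 95 of 100. Causes were not tested. With the replicate block, the tissue counts of 8, 6 and 9 called genes and the counts of 0, 0 and 0 for the D3 changes between tissues did not move. Without each mouse the tissue counts ran from 8 to 10 for lung against liver, 5 to 7 for lung against forestomach and 8 to 9 for liver against forestomach. With the slide block, leaving out 1 lung mouse gave 0 to 1 called genes, with 1 without D0 mouse 3 and 1 without D3 mouse 18 (Phlda3), beside 0.0419% and 0.0322% of probes called.

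Genes higher at an unadjusted p of 0.05 or less numbered 1 in liver with processed signals and 1 with Cy5 alone (beside 7.79% and 7.97% of probes), and in forestomach 1 with Cy5 alone, 1 with all 60 arrays in one fit (beside 2.39% and 2.68%), and 0 to 1 without each mouse (beside 0.39% to 2.62%). The forestomach median was -0.097 with processed signals and -0.243 to -0.108 without each mouse, and the liver median -0.061 to 0.010. Signs turned in liver for Zmat3 (-0.0037, normexp), Mdm2 (0.011, processed signals), Trp53inp1 (-0.0017 with the deposited ratios, -0.050 with its probes averaged) and Btg2 (0.017, Cy5 alone), and in forestomach for Plk2 (0.0030 with processed signals, 0.125 with Cy5 alone). Leaving out 1 mouse gave ranges across 0 for Btg2 in lung (-0.032 to 0.188), in liver for Gdf15 (-0.289 to 0.152), Sesn2 (-0.169 to 0.122), Btg2 (-0.132 to 0.144), Zmat3 (-0.050 to 0.058) and Trp53inp1 (-0.031 to 0.081), and in forestomach for Zmat3 (-0.092 to 0.124). Signal over background limits the second Cdkn1a probe in vehicle lung and Gdf15 in forestomach.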
